A study of Mus musculus with 40 samples.

Results

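Isolated tiles are 100 bp stretches of the mouse autosomes that stand alone, or with a single neighbour, in a table of methylation levels made by reduced representation bisulfite sequencing (RRBS). A tile was counted as isolated when 0 or 1 other rows of the table on its chromosome started within 500 bp, a rule that uses positions and no measured level, and when it had values from at least 2 of the 3 libraries in each group. There were 18797 such tiles among the 200813 autosomal tiles that met the same value rule, and 971845 rows in the whole table. Of the 18797, 424 had no other row within 500 bp and 18373 had 1. Before the value rule 213159 autosomal rows were isolated, of which 8.82% had enough values, against 25.3% of the 719796 other autosomal rows. The isolated tiles are thus the better-covered part of a larger set.

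Methylation of cytosine at CpG sites is the usual state of most of the mammalian genome. CpG islands, the dense runs of CpG that overlap many promoters, are mostly kept free of it, whereas CpGs that lie apart are mostly methylated unless they fall in active enhancers or other bound elements. TET dioxygenases such as Tet2 and Tet3 oxidise 5-methylcytosine, which is a step towards its loss, and in B-lineage cells they are known to act at enhancers. RRBS reads restriction fragments and favours CpG-rich DNA. A sparse stretch of the table is a stretch with few rows, and 175118 of the 971845 rows held no value in any of the 24 libraries.

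The study compared follicular B cells, which are mature and circulate between lymphoid follicles, with pro-B cells, the early bone-marrow precursors, in C57/bl mice. The follicular groups and the pro-B groups had the same 4 genotypes: loss of both Tet2 and Tet3 (DKO), loss of Tet3 (Tet3KO), loss of Tet2 (Tet2KO), and wild type (WT). The labels describe the deletions as inducible and placed under the Mb1 promoter, a promoter of the B lineage, and they do not say whether WT mice carried that transgene. Each of the 8 groups had 3 libraries, 24 in all. The DKO libraries came from 2 males of 7 weeks and 1 female of 6 weeks, the Tet3KO libraries from 2 males and 1 female of 7 weeks, the Tet2KO libraries from females of 8, 6 and 6 weeks, and the WT libraries from males of 8 and 6 weeks and 1 female of 6 weeks, in both stages. Whether the libraries of one group stem from different mice is not stated in the labels, so p-values refer to the spread of the libraries at hand and not to that of mice. The labelled cell types and deletions could not be checked against marker genes or against Tet2 and Tet3, since the tiles carry no gene names.

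The table holds a methylation fraction for each tile and library without any read numbers, so the depth of a value is unknown. Libraries gave a value at 24600 tiles (Tet3KO library 8, pro-B) to 631415 tiles (Tet2KO library 5, pro-B). Library 8 stood apart: it had a value at 713 isolated tiles, against 13189 in pro-B DKO library 12, 13814 in pro-B WT library 1 and 17282 to 18768 in the other 21 libraries. Levels of exactly 100% made up 20.02% to 45.3% of the isolated values in pro-B libraries and 9.79% to 22.04% in follicular libraries. Levels of exactly 0% made up 39.7% of them in library 8, 7.00% to 14.8% in the other pro-B libraries and 4.02% to 5.27% in follicular libraries. Means were therefore taken over the 8474 isolated tiles that all 23 libraries except library 8 had measured. Within a tile, a change in some of the cells and a partial change in all of them cannot be told apart.

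Isolated tiles were mostly highly methylated, and tiles with many rows around them were mostly unmethylated. Averaged over the 8 groups, 69.2% of isolated tiles had a level above 80%, 18.1% lay between 20 and 80%, and 12.7% lay below 20%. Of the 182016 other tiles, 29.1% had a level above 80%, 10.9% lay between 20 and 80%, and 59.98% lay below 20%. The median level was 88.4% with 0 other rows within 500 bp, 91.5% with 1, 89.3% with 2, 71.8% with 4, 6.32% with 5 and 0.36% with 10. Tiles just inside the limit of 1 other row had a mean level of 75.6%, and tiles just outside it, with 2 other rows, had a mean of 69.8%. Levels thus shifted gradually at the limit and steeply between 4 and 5 rows. Whether a tile lies in a CpG island was not checked, since no sequence or annotation of the table's build was at hand, and so the tiles are called isolated here. The 2383 isolated tiles below 20% stood apart from the rest of the set. Those of them among the 8474 tiles used for means, 1566, are described separately below. Low tiles formed a larger share of the 8474 than of all isolated tiles.

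**Figure D1:**
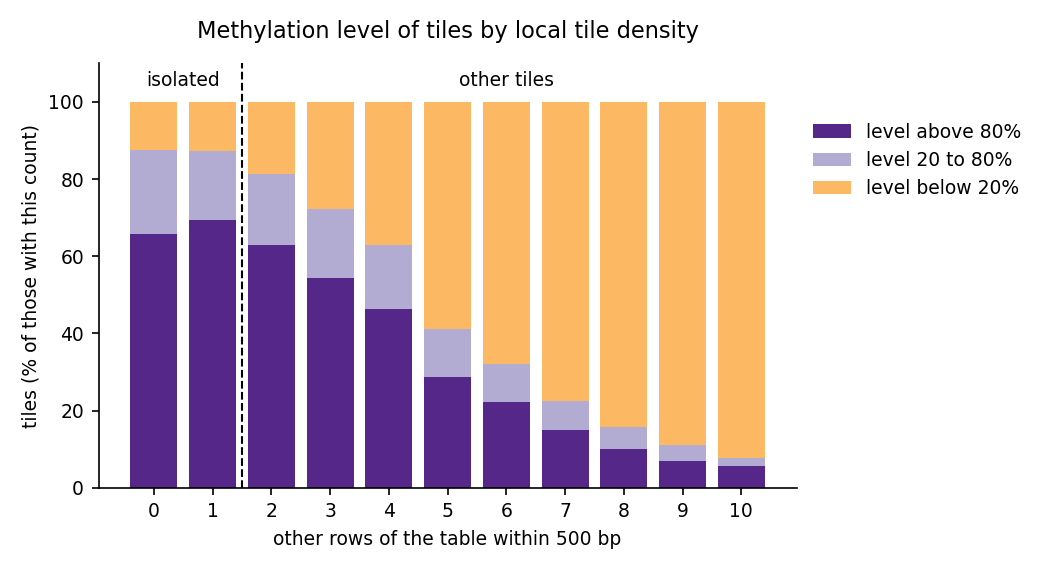
Shares of tiles (y axis, % of the tiles with that count) with a methylation level above 80%, of 20 to 80% and below 20%, by the number of other rows of the table within 500 bp (x axis). Isolated tiles lie left of the dashed line, where 65.8% and 69.3% of tiles were above 80%, against 5.72% of tiles with 10 other rows.

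Neighbouring isolated tiles had similar levels in most pairs. Among the 18373 with a neighbour, that neighbour started 100 bp away for 83.9% and 200 bp away for 15.5%. Isolated tiles formed 4722 pairs in which each was the other's only neighbour, so the 18797 tiles stand for 14075 sites. The mean level of the 2 tiles of a pair differed by a median of 3.99 points, 71.9% of pairs differed by at most 10 points, and 89 pairs differed by more than 50 points. Tiles were not treated as independent, and no test below uses them as replicates. On a wider scale isolated tiles also lay in sparser stretches, with a median of 8 other rows within 10000 bp against 20 for the other tiles.

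In follicular B cells the isolated tiles were most methylated in DKO and least in WT. Their mean level was 71.7%, 70.4% and 71.8% in the DKO libraries, 70.2%, 70.9% and 70.9% in the Tet3KO libraries, 69.9% in each Tet2KO library, and 69.6%, 69.2% and 69.3% in the WT libraries. Every library of each knockout lay above all 3 WT libraries, and the Tet3KO libraries lay above the Tet2KO libraries, while the DKO and Tet3KO libraries overlapped. The difference from WT was 1.95 points in DKO (SE 0.49), 1.28 in Tet3KO (SE 0.27) and 0.571 in Tet2KO (SE 0.142), with a two-sided exact permutation p of 0.1 for each, the smallest that 3 against 3 libraries can give. Adjusted over the 10 comparisons of this kind the permutation p was 0.125. The share of isolated values at exactly 100% moved with genotype too: it was 15.9% to 18.4% in DKO, 11.95% to 22.04% in Tet3KO, 11.7% to 14.99% in Tet2KO and 9.79% to 12.3% in WT, and its part in these differences was not tested. All Tet2KO mice were female, so for means over tiles the Tet2 genotype and sex are partly mixed.

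In pro-B cells the isolated tiles were also higher in DKO and Tet2KO than in WT, with a wider spread. The libraries had means of 71.7%, 68.4% and 68.2% in DKO, 68.7%, 69.7% and 67.9% in Tet2KO, and 66.5%, 67.7% and 67.04% in WT. Both knockouts lay above WT without overlap, although 1 DKO library, library 10, was more than 3 points above the others. The difference from WT was 2.35 points in DKO (SE 1.19) and 1.69 points in Tet2KO (SE 0.63), both with an exact permutation p of 0.1. Without library 10 the DKO difference was 1.21 points.

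The pro-B Tet3KO libraries 7 and 9 had means of 66.998% and 67.7%, of which 1 lay inside the range of the WT libraries and 1 less than 0.1 points above it. Library 8 had a mean of 40.2%, but over the 415 tiles it covered, and at those same tiles the other 23 libraries had means of 39.99% to 46.3%, so the low mean came with the choice of tiles. With library 8 the Tet3KO difference was -8.79 points (SE 9.08, exact permutation p = 0.8), and without it 0.285 points. The pro-B Tet3KO differences below are given for libraries 7 and 9 unless stated.

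From pro-B to follicular cells the mean level of isolated tiles differed in WT, with the follicular libraries higher. The mean was 69.4% ± 0.246 in follicular WT and 67.1% ± 0.593 in pro-B WT (SD, n = 3 each), 2.27 points apart (exact permutation p = 0.1, no overlap). In Tet2KO it was 69.9% ± 0.00974 in follicular cells and 68.8% ± 0.918 in pro-B cells, 1.15 points apart (exact permutation p = 0.1). In Tet3KO the difference was 12.3 points with library 8 (exact permutation p = 0.1) and 3.26 points without it. The DKO libraries of the 2 stages overlapped, at 71.3% ± 0.812 in follicular cells and 69.4% ± 1.97 in pro-B cells, and their difference of 1.87 points did not reach the smallest p (exact permutation p = 0.2).

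**Figure D2:**
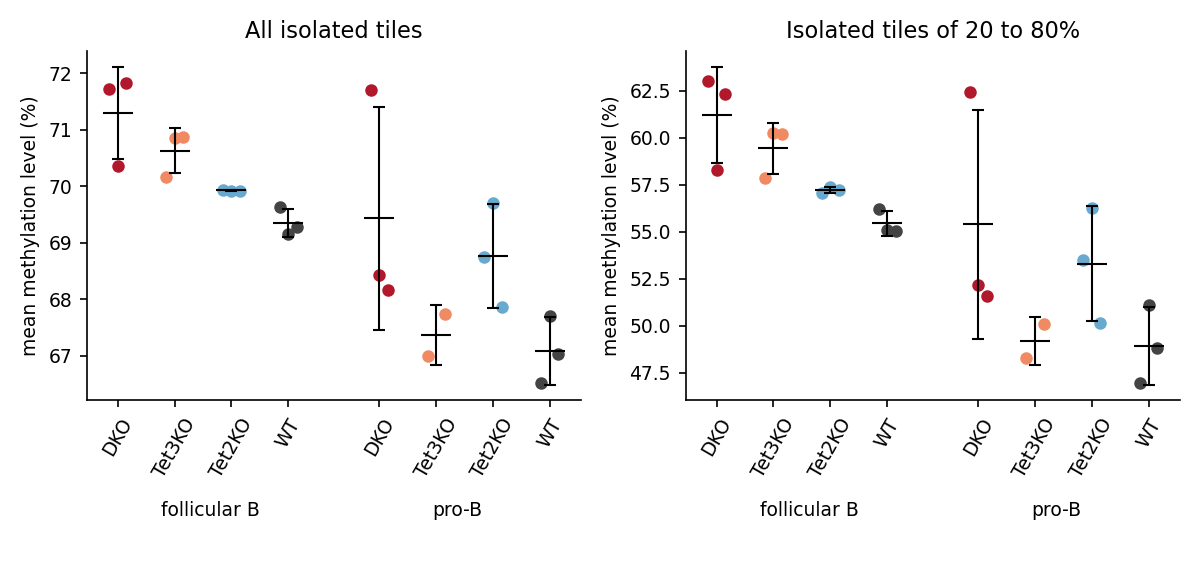
Mean methylation level (y axes, %) of the 8474 isolated tiles with values in 23 libraries (left) and of the 1705 of them with a level of 20 to 80% (right), 1 point per library, by genotype and stage. Bars are the mean and SD of 3 libraries (2 for pro-B Tet3KO, where library 8 is not drawn), the y axes do not start at 0, and follicular knockout libraries lie above follicular WT in both panels.

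In follicular cells the differences were larger at isolated tiles of low or intermediate level than at those above 80%. Of the 8474 isolated tiles, 1705 had an intermediate level (20 to 80%). At these, follicular means were 61.2% ± 2.57 in DKO, 59.4% ± 1.36 in Tet3KO, 57.2% ± 0.155 in Tet2KO and 55.4% ± 0.668 in WT. The differences from WT were 5.76, 3.99 and 1.77 points in DKO, Tet3KO and Tet2KO, each without overlap (exact permutation p = 0.1; adjusted over 6 comparisons, 0.15). In pro-B cells the intermediate tiles had means of 55.4% ± 6.09 in DKO, 53.3% ± 3.06 in Tet2KO and 48.9% ± 2.07 in WT. Pro-B DKO was 6.45 points above WT (exact permutation p = 0.1), or 2.94 points without library 10, which stood at 62.4%. Pro-B Tet2KO was 4.36 points above WT, with ranges that overlapped (exact permutation p = 0.2), and pro-B Tet3KO differed by -4.18 points with library 8 (exact permutation p = 0.6) and by 0.25 points without it.

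The 1566 tiles below 20% among the 8474 isolated tiles also differed between genotypes. Their follicular mean was 9.04% ± 1.13 in DKO, 7.36% ± 0.496 in Tet3KO, 6.40% ± 0.121 in Tet2KO and 5.93% ± 0.0352 in WT, with no overlap between any knockout and WT. In pro-B cells it was 5.55% ± 1.68 in DKO, 4.33% ± 0.423 in Tet2KO and 3.25% ± 0.384 in WT, again with no overlap. The 5203 tiles above 80% among the 8474 lay at 93.4% ± 0.207 in follicular DKO and 93.0% ± 0.187 in follicular WT, with overlapping ranges. At these tiles follicular Tet3KO lay 0.340 points above follicular WT without overlap, and follicular Tet2KO lay 0.208 points above it with overlap. In pro-B cells DKO lay 1.01 points and Tet2KO 0.989 points above WT there, both without overlap. At tiles below 20% outside the isolated set the follicular means were 2.80% ± 0.177 in DKO and 2.10% ± 0.0279 in WT. The follicular DKO difference was thus 3.12 points at isolated and 0.706 points at other tiles of that class. The 2 sets did not share a level within the class, since follicular WT stood at 5.93% at isolated and 2.10% at other tiles. Follicular Tet3KO was 1.43 points above WT at isolated and 0.404 points at other tiles below 20%, and follicular Tet2KO 0.472 points at isolated and 0.181 points at other ones. Above 80% the follicular DKO difference was 0.347 points at isolated and 0.345 points at other tiles. The classes rest on the mean over all 8 groups, knockouts included, so a tile's rise itself can move it to another class. These class means were added after the levels had been seen and carry no test.

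Set against the other tiles, the knockout difference of the isolated tiles was larger when all levels were averaged by mean. It was close to that of the other tiles at levels of 20 to 80%. For DKO, tiles with 2 to 4 other rows had follicular differences close to that at 1 row. Over all levels the follicular DKO difference was 3.62 points at 0 other rows (106 tiles) and 1.93 at 1. It was 2.03 at 2, 2.00 at 3, 1.79 at 4 and 0.35 at 10. In pro-B DKO it was 2.19 points at 0 other rows, 2.35 at 1, 2.29 at 2 and 2.33 at 3. The isolated tiles lay 45.1 points above the other tiles in follicular DKO and 44.2 points above them in follicular WT, a gap that was 0.868 points wider in DKO (SE 0.295), 0.516 points wider in Tet3KO and 0.205 points wider in Tet2KO (exact permutation p = 0.1 each, adjusted 0.12 over 6). The direction turned for DKO when medians over tiles were used (-0.0574 points, exact permutation p = 0.7) and for Tet2KO when isolated meant exactly 0 other rows (-0.119 points, exact permutation p = 0.9). In pro-B cells the gap was 1.25 points wider in DKO and 0.903 points wider in Tet2KO (exact permutation p = 0.1 each), and for Tet3KO it changed by -4.17 points with library 8 (exact permutation p = 0.7) and by 0.0972 points without it. Restricted to tiles of 20 to 80% in both sets, the difference between isolated and other tiles was 0.242 points for follicular DKO (exact permutation p = 0.6), -0.146 for follicular Tet3KO (p = 0.8), -0.135 for follicular Tet2KO (p = 0.7), 0.357 for pro-B DKO (p = 0.5) and -0.434 for pro-B Tet2KO (p = 0.5), all by exact permutation. At tiles of 20 to 80%, then, no difference between isolated and other tiles stood out from the spread of the libraries. The follicular differences below 20% given above were larger at isolated tiles, where WT levels were also higher, and were not tested.

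**Figure D3:**
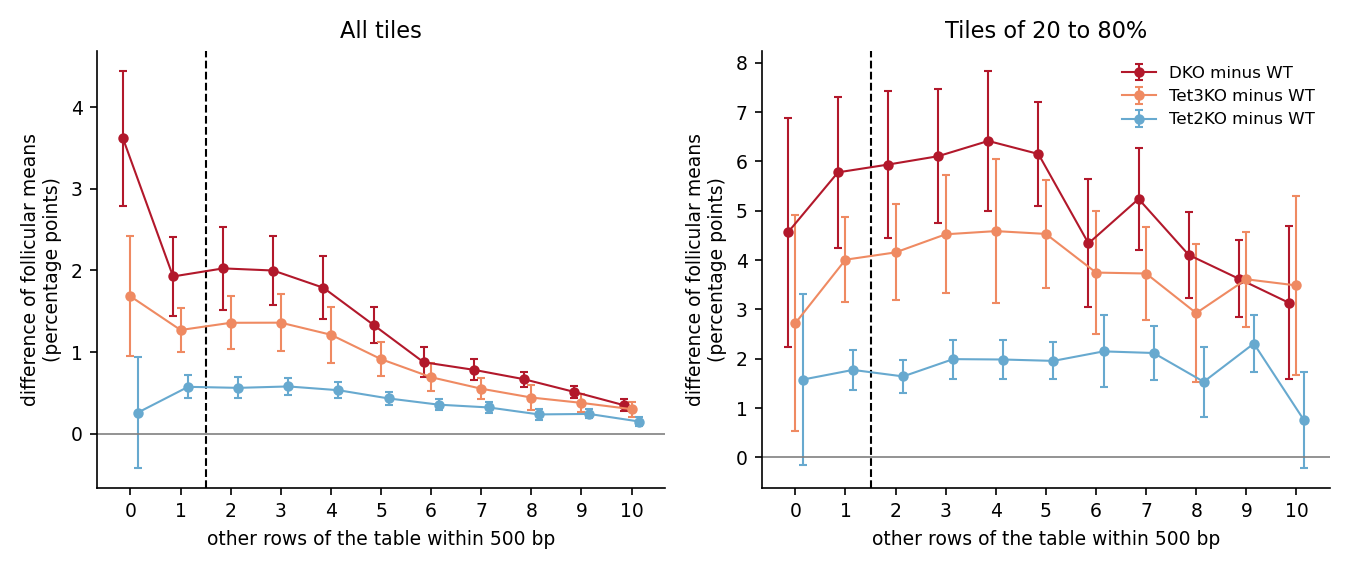
Difference of follicular group means from WT (y axes, percentage points; bars are SE over 3 libraries a group) for DKO, Tet3KO and Tet2KO by the number of other rows within 500 bp (x axes), for all tiles (left) and tiles of 20 to 80% (right). The DKO difference over all tiles was 1.93 points at 1 other row, 2.03 at 2, 1.79 at 4 and 0.35 at 10. At intermediate tiles it was 5.78 points at 1 other row, 6.41 at 4 and 3.13 at 10. The isolated tiles lie left of the dashed lines.

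Isolated tiles also differed among themselves with the density of their wider surroundings. Split by the number of rows within 10000 bp, tiles with 0 to 4 rows had a mean level of 82.1%, those with 5 to 8 had 79.0%, those with 9 to 16 had 74.3% and those with 17 to 87 had 65.5%. The follicular DKO difference from WT was 1.09, 1.21, 2.35 and 3.16 points in these 4 parts, and in each the DKO libraries lay above the WT libraries. The larger differences thus came with lower levels, and these were not separated.

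Single tiles were tested with limma over all 200813 tiles, and a tile counted as called when its Benjamini-Hochberg adjusted p was under 0.05 and its group means lay 20 points or more apart. In follicular DKO, 50 isolated tiles rose and 1 fell against WT. That is 0.266% of the isolated tiles higher, where 0.128% of all tiles tested were called higher and 0.000996% lower. The share called higher was 0.272% at 1 other row, 0.224% at 2, 0.249% at 3 and 0.216% at 4. By level it was 0.546% below 20%, 0.851% at 20 to 80% and 0.0615% above 80% at isolated tiles. At other tiles these shares were 0.066%, 0.580% and 0.0377%. The median difference over all isolated tiles was 0.592 points and that over all tested tiles was 0.106 points. By mean level over the 8 groups, which includes the rise in DKO, 13 of the raised tiles lay below 20%, 29 between 20 and 80% and 8 above 80%. None of the 424 tiles without any neighbour was called in follicular DKO. At a share of 0.266% very few calls would fall among 424 tiles, so that count says little. In follicular DKO 979 isolated tiles (5.21%) had an unadjusted limma p under 0.05, against 5.82% of all tiles.

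The 50 raised tiles were mostly sites of low methylation in follicular WT that were largely methylated in follicular DKO. Their follicular mean exceeded 80% in DKO at 25 tiles, while in WT it lay below 20% at 31 and between 20 and 80% at 19. The median level was 79.9% in DKO, 35.5% in Tet3KO, 17.995% in Tet2KO and 9.40% in WT. At 49 of the 50 the Tet3KO mean lay between WT and DKO, and at 47 the Tet2KO mean did. The Tet3KO mean was at least 20 points above WT at 23 tiles and the Tet2KO mean at 12, and Tet3KO exceeded Tet2KO at 38. These tiles were chosen by their DKO level and share the WT libraries, so the single-knockout values are a description. The pro-B WT mean lay above the follicular WT mean at 33 of the 50 tiles. Whether methylation was gained or kept in DKO was not tested. Adjusted limma p-values of the 50 ran from 1.33e-05 to 0.0453, and the count was 30 without WT library 14, 76 without DKO library 23 and 4 when only the DKO and WT libraries were fitted.

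The strongest of them had low levels in every follicular WT library, which ranking by the size of the rise favours. Among the tiles with the largest rise, named here and below, only the chromosome 16 tile kept its call with just DKO and WT fitted. On chromosome 2, the tile at 30262001 to 30262100 (coordinates here and below are those of mm9) had levels of 85.7%, 89.5% and 100% in follicular DKO, 18.2%, 50% and 38.9% in Tet3KO, 43.5%, 31.9% and 19.05% in Tet2KO, and 12.2%, 3.57% and 0% in WT. All DKO libraries stood far above the rest, and both single knockouts lay between them and WT and overlapped each other. The difference from WT was 86.5 points (SE 15.3, limma adjusted p = 0.029). On chromosome 16, the tile at 17410501 to 17410600 had 95.5%, 91.0% and 98.4% in DKO, 44.4%, 18.3% and 27.0% in Tet3KO, 59.8%, 31.1% and 44.6% in Tet2KO, and 8.26%, 9.63% and 8.51% in WT. Here too every DKO library lay above, and every WT library below, both single knockouts, which overlapped each other, and the DKO difference was 86.2 points (SE 15.7, limma adjusted p = 0.03). Both calls were lost when any 1 WT library or DKO library 24 was left out, and the second also without DKO library 22.

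At other raised tiles only 1 of the 2 single knockouts, or neither, stood well above WT. On chromosome 6, the tile at 86604601 to 86604700 had 97.3%, 76.7% and 100% in DKO, 67.3%, 42.1% and 46.7% in Tet3KO, 15.9%, 13.04% and 36.6% in Tet2KO, and 8.43%, 8.82% and 8.60% in WT. The Tet3KO libraries stood about midway, above every Tet2KO library. On chromosome 8, the tile at 119863701 to 119863800 had 92.9%, 64% and 92.6% in DKO, 45.5%, 44.7% and 45.5% in Tet3KO, 9.38%, 15.2% and 6.58% in Tet2KO, and 10%, 7.44% and 8.47% in WT. Tet2KO and WT overlapped there, and Tet3KO stood apart from both. In pro-B cells the same tile was methylated in all genotypes, at 53%, 71.0% and 87.3% in DKO and 63.8%, 52.6% and 32.7% in WT. The DKO differences in follicular cells were 82.7 points (limma adjusted p = 0.0112) on chromosome 6 and 74.5 points (limma adjusted p = 0.0067) on chromosome 8.

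On chromosome 19, the tile at 37546001 to 37546100 had 75.4%, 89.5% and 86.4% in follicular DKO, 5.71%, 11.7% and 11.9% in Tet3KO, 0%, 3.90% and 13.5% in Tet2KO, and 15.2%, 0% and 4.40% in WT. Neither single knockout left the WT range there. Pro-B cells showed the same pattern, with 100%, 100% and 50% in DKO and 0%, 11.5% and 1.37% in WT, and the tile was called in both stages (77.2 points in follicular and 79.0 points in pro-B cells, limma adjusted p = 0.00183 and 0.00203). On chromosome 11, a pair of isolated tiles 200 bp apart was called at both places, at 44306901 to 44307000 with 75.9%, 88.9% and 95.8% in DKO and 4%, 6.67% and 1.82% in WT, and at 44307101 to 44307200 with 96.2%, 70.7% and 82.5% in DKO and 2.29%, 7.14% and 1.53% in WT. Of the 2, the first had 22.2%, 43.8% and 61.5% in Tet3KO and the second 5.83%, 14.9% and 14.9%, so the tiles of 1 pair differed in the single knockout. The DKO differences were 82.7 and 79.5 points.

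The remaining 3 of the 10 with the largest rise lay on chromosome 12 at 104565401 to 104565500, chromosome 7 at 25408701 to 25408800 and chromosome 1 at 135364101 to 135364200, with differences of 70.7, 69.8 and 68.8 points. The chromosome 12 tile had 0%, 6.45% and 58.3% in Tet3KO, so 1 library decided that mean, and its DKO call was lost without any 1 of the WT libraries or DKO library 22. The chromosome 7 tile had 98.0%, 86.7% and 86.7% in DKO and 23.4%, 18.9% and 19.5% in WT. The chromosome 1 tile had 77.8%, 78.3% and 64.7% in DKO and 4.65%, 3.45% and 6.38% in WT. The DKO and WT libraries did not overlap at either. The 1 isolated tile called lower in follicular DKO lay on chromosome 3 at 95192101 to 95192200, with 76.6%, 75% and 72.7% in DKO and 97.1%, 96.9% and 96.8% in WT, a difference of -22.2 points (limma adjusted p = 0.0467). That call was lost whenever any library of either group was left out.

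**Figure D4:**
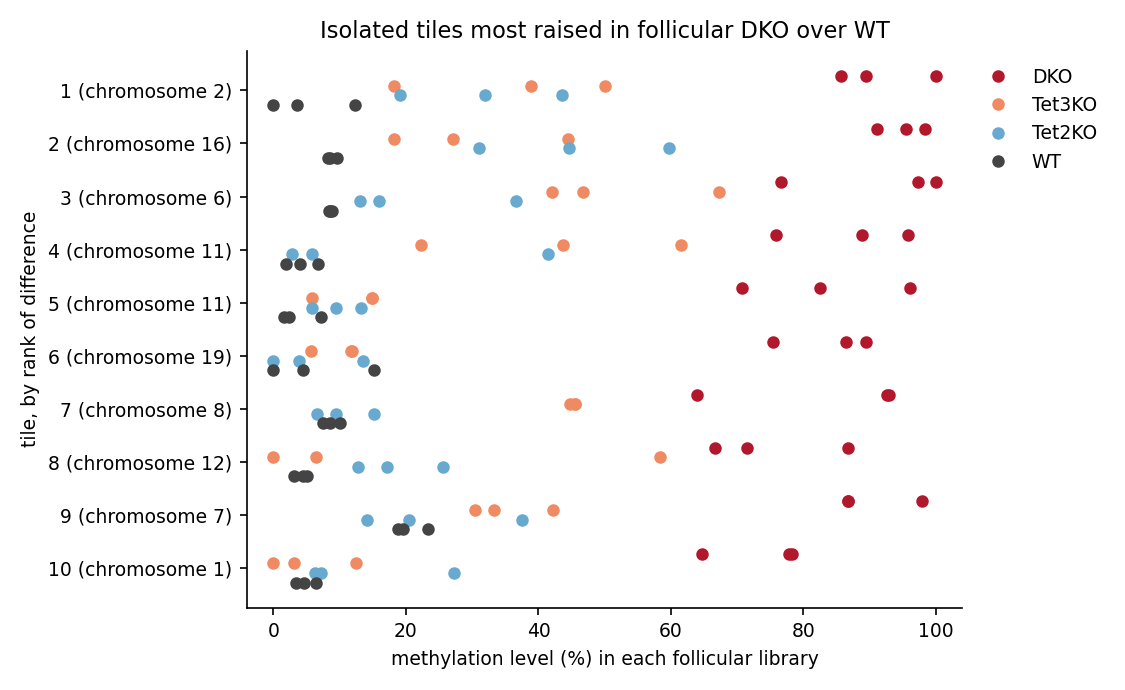
Methylation level (x axis, %) in each follicular library at the 10 isolated tiles with the largest DKO difference (y axis, by rank, with chromosome), coloured by genotype with 3 libraries each; a point can hide another of the same level. All DKO points lie above 60% and all WT points below 25%, and at each tile the Tet3KO and Tet2KO points lie below the DKO points, some of them within or below the range of WT.

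The neighbours of the raised tiles were mostly higher too. Of the 50, 33 had a neighbour that could be tested, 32 of these neighbours were higher in DKO than in WT, 23 were higher by at least 20 points, and 8 were called. The median difference of the neighbours was 36.3 points. Since a neighbour can share fragments with its tile, this measures how far a change reached and is no independent repeat.

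Pro-B libraries were also higher in DKO at these tiles. They did not enter the follicular group means, but they did enter the shared estimate of the spread. The 29 of the 50 tiles with a value in all 23 libraries had a mean pro-B level of 68.1% ± 3.64 in DKO, 49.2% in Tet3KO (n = 2), 45.9% ± 2.81 in Tet2KO and 39.0% ± 3.45 in WT. DKO was 29.0 points above WT (SE 2.90, exact permutation p = 0.1, no overlap), and it was higher at 28 of the 29 tiles. In turn, 59 of the 65 isolated tiles called higher in pro-B DKO could be measured in follicular cells, where they averaged 78.2% ± 1.32 in DKO and 54.6% ± 0.967 in WT, which put DKO 23.6 points higher (SE 0.944, exact permutation p = 0.1). Tiles called higher in both stages numbered 15, which is 30% of the follicular 50 and 23.1% of the pro-B 65. Both sets of calls came from the same fit. The overlap over all tested tiles was not counted, so this sharing cannot be called particular to isolated tiles.

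Single-knockout calls among isolated follicular tiles were few. In Tet3KO 3 isolated tiles were higher and 0 lower than in WT, where 0.00996% of all tiles were called higher and 0% lower, and 614 isolated tiles (3.27%) had an unadjusted limma p under 0.05, against 3.96% of all tiles. The 3 Tet3KO tiles were among the 50 raised in DKO, against the same WT libraries. On chromosome 5, the tile at 144763301 to 144763400 had 65.8%, 69.4% and 78.3% in Tet3KO and 16.3%, 28.6% and 22.1% in WT, a difference of 48.9 points (SE 5.23, limma adjusted p = 0.000535). DKO stood higher still there, at 90.5%, 82.5% and 89.3%, and Tet2KO lay between, at 46.6%, 41.7% and 43.1%. The others, on chromosome 15 at 96439101 to 96439200 and on chromosome 1 at 166217701 to 166217800, differed by 31.4 and 23.7 points, and the second call was lost without WT library 14 or 15. Fitted with only Tet3KO and WT, 0 tiles were called. In Tet2KO 0 isolated tiles were called by limma in either direction, where 0.00299% of all tiles were called higher and 0% lower, and 435 isolated tiles (2.31%) had an unadjusted limma p under 0.05, against 2.87% of all tiles; on the log2 ratio scale limma also called 0.

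Pro-B DKO had 65 isolated tiles higher and 8 lower than WT, which is 0.346% and 0.0426% of the isolated tiles, where 0.187% of all tiles were called higher and 0.0438% lower. The share called higher was 0.354% at 1 other row, 0.352% at 2 and 0.325% at 3. The calls included a tile on chromosome 2 at 4454201 to 4454300, with 100%, 60% and 100% in DKO and 0% in each WT library, a difference of 86.7 points (limma adjusted p = 0.0238). A tile on chromosome 10 at 90775801 to 90775900 had 89.2%, 82.9% and 76.2% in DKO and 6.67%, 0% and 5.71% in WT, 78.6 points apart (limma adjusted p = 0.00745). Follicular DKO showed a smaller spread from WT at that tile, with 40.6%, 64.1% and 78.1% against 12.7%, 1.01% and 10.7%. Among the 8 lower tiles, the one on chromosome 15 at 91357701 to 91357800 had 63.6%, 68.1% and 50% in DKO and 100% in each WT library (-39.4 points, limma adjusted p = 0.0125). A second, on chromosome 2 at 137399401 to 137399500, had 78.3%, 77.3% and 57.6% in DKO and 100%, 92% and 100% in WT (-26.3 points), while in follicular cells it had 94.5%, 100% and 100% in DKO and 95.7%, 93.8% and 95.7% in WT. The calls at both chromosome 2 tiles were lost without DKO library 12. All DKO libraries were at exactly 100% at 18 of the 65 higher tiles. Without WT libraries 1, 2 or 3 the higher count was 140, 301 or 268, without DKO library 11 it was 124, and without library 10 there were 71 higher and 206 lower. With only DKO and WT in the fit 1 was higher and 0 lower. The main fit used a single spread per tile for both stages. At isolated tiles of 20 to 80% the median SD between libraries was 15.3 points in pro-B DKO and 14.02 in pro-B WT. In follicular DKO and WT it was 8.39 and 6.04 points. The shared spread may thus be too small for pro-B libraries, and the limma adjusted p-values of pro-B calls, here and below, too low.

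Pro-B Tet3KO had 55 isolated tiles higher and 114 lower, where 0.164% of all tiles were called higher and 0.257% lower, and 53 of the higher and all 114 lower tiles rested on libraries 7 and 9 alone. All WT libraries were at exactly 100% at 46 of the 114 lower tiles. The tile on chromosome 4 at 150869601 to 150869700 had 0% and 45.8% in Tet3KO and 100% in each WT library (-77.1 points), and that on chromosome 16 at 9646101 to 9646200 had 50% and 0% in Tet3KO and again 100% in WT (-75 points). A further one, on chromosome 17 at 9480701 to 9480800, differed by -69.7 points. The higher tiles with the largest differences lay on chromosome 7 at 145793101 to 145793200 (73.0 points), chromosome 1 at 76829001 to 76829100 (71.7 points) and chromosome 5 at 117048901 to 117049000 (60.1 points). Calls were lost on chromosome 7 without WT library 1 or 3 or Tet3KO library 7, on chromosome 4 without Tet3KO library 7, and on chromosome 17 without WT library 1 or Tet3KO library 9. The follicular Tet3KO and WT libraries, 3 each, entered these calls only through the shared estimate of the spread. In them 107 of the lower tiles averaged 86.9% ± 1.15 in Tet3KO and 85.4% ± 0.58 in WT. These tiles were thus 1.54 points higher and not lower (exact permutation p = 0.1). The 51 higher tiles measured there were 4.36 points higher, at 74.7% ± 1.69 in Tet3KO and 70.3% ± 0.834 in WT (exact permutation p = 0.1). In the same libraries Tet3KO lay 1.28 points above WT over all isolated tiles. It lay 3.99 points above WT at isolated tiles of intermediate level and 0.340 points at those above 80%. Whether the called tiles differed more in follicular cells than isolated tiles of similar level was not tested. Without Tet3KO library 7 or 9 the lower count was 729 or 598, and with only Tet3KO and WT in the fit 1 was higher and 0 lower.

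Pro-B Tet2KO had 20 isolated tiles higher and 8 lower, where 0.0558% of all tiles were called higher and 0.0129% lower. The higher tiles included chromosome 17 at 76982601 to 76982700, with 83.4%, 79.2% and 97.3% in Tet2KO and 48.7%, 56% and 53.8% in WT (33.8 points, limma adjusted p = 0.0222), a call that was lost with sex as a covariate. Chromosome 16 at 93942801 to 93942900 and chromosome 4 at 100667301 to 100667400 differed by 29.4 and 26.8 points. The lower tile on chromosome 15 at 93465201 to 93465300 had 67.9%, 66.7% and 28.6% in Tet2KO and 100% in each WT library (-45.6 points) and was also lost with sex as a covariate. Measured in follicular cells, 17 of the 20 higher tiles were at 89.3% ± 0.727 in Tet2KO and 88.6% ± 1.17 in WT, and the difference of 0.636 points was within the spread (exact permutation p = 0.5). Left-out WT libraries raised the higher count to 86, 222 and 193, and with only Tet2KO and WT in the fit 1 was higher and 0 lower.

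Between stages in WT, 46 isolated tiles were higher and 12 lower in follicular than in pro-B cells, where 0.133% of all tiles were called higher and 0.0473% lower. On chromosome 10, the tile at 35431601 to 35431700 had 55.1%, 67.2% and 56.2% in follicular WT and 0% in each pro-B WT library (59.5 points, limma adjusted p = 0.0206). That call was lost without follicular WT library 14 and with libraries matched between stages by genotype, sex and age as a block (limma adjusted p = 0.0862). The follicular knockouts reached similar levels at it, between 50.7% and 79.9%. The other 2 of the 3 largest gains were a pair of adjoining tiles on chromosome 18, at 64609501 to 64609600 and 64609601 to 64609700, with gains of 61.2 and 63.1 points. Each was at 0% in all 3 pro-B WT libraries. Levels of exactly 0% made up 10.3% to 14.8% of the isolated values in pro-B WT libraries and 4.55% to 4.93% in follicular WT libraries. The higher count was 27 without follicular WT library 14 and 108, 255 and 202 without pro-B WT libraries 1, 2 and 3, and it was 12 with libraries matched between stages by sex and age.

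At the 3 tiles that fell most in WT between the stages, follicular DKO had higher means than follicular WT. On chromosome 6, the tile at 146460201 to 146460300 had 95.2%, 77.3% and 87.4% in follicular DKO, 51.5%, 53.3% and 32.7% in follicular Tet3KO, 42.6%, 40% and 43.4% in follicular Tet2KO, and 22.6%, 14.1% and 19.6% in follicular WT. Pro-B WT stood at 61.9%, 97.9% and 84.5% there, a stage difference of -62.7 points in WT (limma adjusted p = 0.0043). On chromosome 11, the tile at 54844601 to 54844700 had 85.9%, 64.6% and 64.9% in follicular DKO, 8.84%, 8.89% and 2.53% in follicular WT, and 71.3%, 61.7% and 50.8% in pro-B WT. The stages differed by -54.5 points in WT (limma adjusted p = 0.0107), and follicular DKO stayed within or above the range of pro-B WT. Another, on chromosome 17 at 21508301 to 21508400, had 71.4%, 52.2% and 73.7% in follicular DKO, 33.3%, 44.4% and 55.6% in follicular WT, and 100% in each pro-B WT library. DKO and WT overlapped at that tile. Over all 12 tiles that fell, the median follicular level was 87.0% in DKO, 69.0% in Tet3KO, 66.9% in Tet2KO and 45.6% in WT. The choice of these tiles used the same WT libraries, so this is a description. The difference between DKO and WT was itself larger in follicular than in pro-B cells at 4 isolated tiles and smaller at 8, where 0.0134% and 0.0154% of all tiles were called in these directions.

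The follicular mean of the isolated tiles lay above WT on all 19 autosomes in each knockout. The DKO mean was above WT by 0.519 points on chromosome 10 to 4.04 points on chromosome 19, and the DKO and WT libraries did not overlap on 18 of the 19. For Tet3KO they did not overlap on 16 and for Tet2KO on 10. In pro-B cells DKO and Tet2KO were above WT on all 19, without overlap on 12 and 6, and Tet3KO was above WT on 14 with overlap on each. Chromosome 10 stood apart by its tiles: 16.2% of its isolated rows had values in every group, against 7.38% to 10.7% on the other 18 autosomes, and its isolated tiles had a follicular WT mean of 84.3%, against 57.2% to 76.1%. Leaving chromosome 10 out, which was chosen after the data were seen, the follicular DKO difference was 2.17 points and 45 tiles were called higher.

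**Figure D5:**
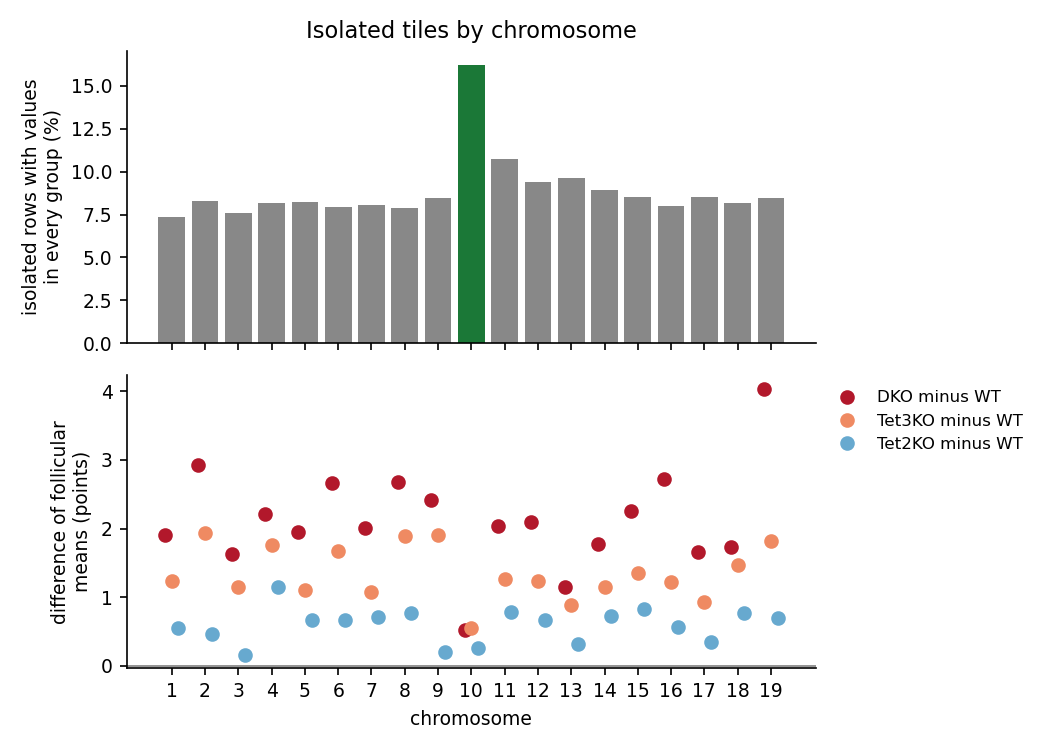
Share of isolated rows that met the value rule of 2 or more libraries a group (upper panel, %) and difference of follicular group means from WT at isolated tiles (lower panel, percentage points) for DKO, Tet3KO and Tet2KO, by autosome (x axis). Chromosome 10, drawn in green, has a share of 16.2% and the smallest DKO difference, 0.519 points, and every point lies above 0.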

How the data were processed

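RRBS levels of 24 libraries in 8 groups were used. The authors deposited methylation fractions per 100 bp tile and library, with no counts or coverage; per the submitters' processing notes Trim Galore and methylKit were used, and mm9 and hg19 are named. Coordinates were taken as mm9, since chromosome 1 reaches 197193600. For the aligner, coverage minimum and conversion rate nothing was given in the sources used here. The 16 RNA samples were not analysed here.

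Fractions were multiplied by 100. Neighbours were counted over all rows, of which 175118 had no value. Limma 3.58.1 (R 4.3.3) was fitted to every tile with the 8 groups as a factor and a trended prior spread, and adjusted over 200813 tiles; the procedure was tested on simulated data. Library means were tested by exact permutation, two-sided (numpy 2.4.6). Named tiles were the 10 with the largest rise and up to 5 with the largest fall in follicular DKO, and up to 3 a direction elsewhere, among called tiles whose groups had full values (at least 2 for pro-B Tet3KO) and did not overlap. The tiles, lists and alternatives were chosen with earlier results of these data known. No gene was assigned, since the annotation at hand was of another build. The labels share no replicate numbers, so libraries of the 2 stages were matched on genotype, sex and age for the block. Alternatives are given in the closing section.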

Additional observations from a re-analysis of the deposited data

Results flagged for a closer look

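The DKO-minus-WT difference itself differed between the stages at 12 isolated tiles by the interaction term of the limma fit, where it was larger in follicular than in pro-B cells at 4 and smaller at 8. Of all tiles tested, 0.0134% and 0.0154% were called in these directions, and 1267 isolated tiles (6.74%) had an unadjusted limma p under 0.05, against 5.52% of all tiles.

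At the chromosome 7 tile from 135720301 to 135720400 the follicular difference exceeded the pro-B difference by 47.2 points (limma adjusted p = 0.0209). Follicular levels were 95.1%, 100% and 94.3% in DKO and 39.5%, 56.6% and 41.1% in WT, and pro-B levels were 100%, 100% and 92.7% in DKO and 96.3%, 100% and 85.9% in WT. The tile was high in pro-B cells of both genotypes and low in follicular WT only among these 4 groups.

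At the chromosome 15 tile from 96439101 to 96439200 the excess was 31.7 points (limma adjusted p = 0.0189). Follicular levels were 95.2%, 94.4% and 100% in DKO and 65.0%, 53.5% and 69.2% in WT, and pro-B levels were 92.3%, 88.7% and 100% in DKO and 89.4%, 93.5% and 91.2% in WT.

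At the chromosome 19 tile from 42100701 to 42100800 the difference between stages was -52.1 points (limma adjusted p = 0.0131). Follicular levels were 2.50%, 13.1% and 6.98% in DKO and 8.91%, 17.2% and 23.8% in WT, and pro-B levels were 36.4%, 42.6% and 50% in DKO and 0% in each WT library. DKO was above WT in every pro-B library, while the follicular libraries of the 2 genotypes overlapped.

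At the chromosome 2 tile from 175799701 to 175799800 it was -28.5 points (limma adjusted p = 0.0269). With libraries matched between stages by genotype, sex and age as a block the limma adjusted p was 0.123, and the call was also lost when only tiles with a value in the 23 libraries were tested. Follicular levels were 2.91%, 6.25% and 9.73% in DKO and 26.1%, 18.4% and 15.7% in WT, and pro-B levels were 20%, 11.6% and 12.6% in DKO and 0% in each WT library. Its 2 stages moved in opposite directions.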

How the results depend on the processing

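Follicular and pro-B differences in mean level kept their direction in 271 of 280 recalculations over 22 comparisons, and the 39 tiles named for a comparison kept their call in 594 of 684, with 0 reversed. The 684 include settings that could not change a tile's call. Leaving out chromosome 10 left the tile values as they were, even at named tiles on that chromosome. Changing only the rule for isolated tiles left the fit over all tiles unchanged. Outside the interaction, named tiles were chosen for groups that did not overlap, so a reversal was unlikely from the start. The 594 thus overstate how well the calls held. Counts of called tiles depended on which libraries and tiles entered the fit. Counts are given as higher and lower. With only the compared groups in the fit they were 4 higher in follicular DKO, 0 higher in follicular Tet3KO, 1 and 0 in each pro-B knockout, 13 and 3 between WT stages, and 2 and 3 for the interaction. With the 23-library tiles they were 29 and 0 in follicular DKO, 22 and 1 in pro-B DKO, 18 and 27 in pro-B Tet3KO, 1 and 0 in pro-B Tet2KO, 16 higher between WT stages, and 2 and 1 for the interaction. The first of these settings uses fewer libraries and the second fewer tiles; here and below the cause was not tested. With a neighbour count of exactly 0 all counts were 0 except 1 lower in pro-B Tet3KO, but only 424 tiles met that rule. On the log2 ratio scale 0 tiles were lower in follicular DKO, 14 lower in pro-B DKO, 7 higher in pro-B Tet2KO, and the interaction had 1 and 5. With sex as a covariate 0 were lower in follicular DKO and pro-B Tet2KO had 13 and 2. With each library centred 2 were lower in follicular DKO and 15 in pro-B DKO. Asking 30 points left 0 lower in follicular DKO, 3 lower in pro-B DKO, 13 higher in pro-B Tet2KO, and 2 and 5 for the interaction. Counting only rows with a value gave 13 lower in pro-B DKO, and a window of 1000 bp gave 5 lower in pro-B Tet2KO.

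With the replicate block of matched genotype, sex and age, 12 tiles were higher between WT stages and the interaction had 3 lower; the stages differed in mean level by 1.16 points in Tet2KO, 2.31 in DKO and 2.27 in WT. Reversed were the DKO stage difference by median (-0.141), and the isolated-minus-other difference for follicular DKO by median (-0.057), for follicular Tet2KO with a count of exactly 0 (-0.119), and at intermediate tiles for follicular Tet3KO (-0.146), follicular Tet2KO (-0.135) and pro-B Tet2KO (-0.434).

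Leaving out 1 library at a time, higher and lower counts ranged from 30 to 76 and 0 to 6 in follicular DKO, 2 to 7 and 0 to 3 in follicular Tet3KO, 0 to 3 and 0 to 2 in follicular Tet2KO, 71 to 301 and 11 to 206 in pro-B DKO, 59 to 263 and 103 to 729 in pro-B Tet3KO, 20 to 222 and 10 to 36 in pro-B Tet2KO, 27 to 255 and 9 to 22 between WT stages, and 4 to 123 and 7 to 138 for the interaction. Pro-B Tet3KO mean differences ranged from -13.5 to 0.285 points over all isolated tiles, -6.84 to 0.25 at intermediate tiles and -6.41 to 0.0972 for isolated minus other, and changed sign only without library 8. Where 1 library of a group remained at a tile, it was assumed to vary like the other groups. Depth is unknown, so levels of 0 or 100% may rest on few reads.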

Other observations

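Chromosome 10 held 1792 isolated tiles with values in every group, against 459 to 1313 on the other 18 autosomes. An isolated row there had a value in 10.8 libraries on average, against 8.13 to 9.22 elsewhere, and 19.6% of its isolated rows had no value in any library, against 22.9% to 34.0%. The share of isolated rows with a value was largest on chromosome 10 in all 24 libraries. Its rows outside the isolated set had a value in 13.4 libraries, against 12.2 to 13.2 elsewhere. The excess was spread along the chromosome, since in its 13 windows of 10 Mb between 11.6% and 22.5% of isolated rows met the value rule. Its isolated tiles were above 80% in 80.6% of cases, against 60.8% to 73.6% on the others. The reason was not tested.

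Taken without any test, differences of at least 20 points between follicular DKO and WT means were seen upwards at 568 isolated tiles (3.02%) and downwards at 49 (0.261%), against 1.62% and 0.184% of other tiles. In pro-B DKO they were seen upwards at 1474 isolated tiles (7.84%) and downwards at 591 (3.14%), against 3.81% and 1.54% of other tiles. The median SD between libraries at isolated tiles of 20 to 80% was 8.39 points in follicular DKO and 6.04 in follicular WT, and 15.3 points in pro-B DKO and 14.02 in pro-B WT.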
